A study of Mus musculus with 6 samples.

Results

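Glycolytic enzymes, glucose and lactate transporters, and genes of the hypoxia-inducible factor (HIF) pathway were followed here in vascular smooth muscle cells, which form the contractile middle layer of arteries, with RNA sequencing. The cells were isolated from mouse aorta and cultured, and received either trimethylamine N-oxide (TMAO, a metabolite made in the liver from a product of gut bacteria) or control treatment, in both cases for 48 h. Each group had 3 libraries, and both groups came from the same kind of cultured aortic cell. The dose of TMAO, the strain, sex and age of the mice, the control treatment in detail, the oxygen level and the number of passages are not stated in the sources used here. Whether the 3 samples of a group go back to different animals is not stated either, and the p-values below cover only the spread among these samples, which may be technical. Members were chosen by name, from a list of 39 gene names, out of 25939 genes in the deposited tables. These names matched 40 rows, because Aldoa names 2 gene models.

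Glycolysis splits glucose into pyruvate in the cytosol and yields ATP without oxygen, and lactate dehydrogenase turns pyruvate into lactate when it is not passed to the mitochondria. HIF is a pair of transcription factor subunits. Its alpha subunit (HIF-1 alpha from Hif1a, HIF-2 alpha from Epas1) is marked for destruction by prolyl hydroxylases while oxygen is present, and in hypoxia it joins ARNT and switches on most glycolytic genes. Control of the alpha subunit acts mainly on the protein, so the level of Hif1a mRNA is not a measure of HIF activity. Cultured smooth muscle cells are known for a strongly glycolytic metabolism.

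Values are FPKM, the fragments of a gene divided by its exon length in kilobases and by library size. The totals implied by the deposited values ran from 14991252 to 16806728 reads per library. In the check of the labelled cell type, the mean of Acta2 (smooth muscle actin) was 487 FPKM in Control against 483 FPKM in TMAO. Smtn and Lmod1, of the same smooth muscle list, had Control means of 4.39 and 2.22 FPKM and TMAO means of 4.54 and 1.97 FPKM. The contractile markers Myh11, Cnn1 and Tagln and the cofactor gene Myocd all had means under 1 FPKM in both groups. Exons annotated on the other strand overlap 67.9% of the exon bases of Tagln and 16.3% of those of Smtn. The sources used here do not state how strand was treated in counting, so both levels are uncertain. The endothelial markers Pecam1, Cdh5 and Vwf and the leukocyte marker Ptprc were each under 0.1 FPKM in both group means, whereas Emcn, also expressed by endothelium, had means of 15.8 and 12.3 FPKM. The progenitor and fibroblast markers Ly6a and Pdgfra had Control means of 415 and 26.5 FPKM, and TMAO means of 410.0 and 23.8 FPKM, whereas the other 4 of that list were lower, with Dpt at 7.11, Cd34 at 1.53, Clec3b at 0.244 and Pi16 at 0.13 FPKM over all libraries. Summed over each list, the endothelial markers ran from 15.5 to 16.8 FPKM in Control and from 12.5 to 13.1 FPKM in TMAO, nearly all of it Emcn, and the macrophage and leukocyte markers from 74.5 to 91.1 and from 70.5 to 79.1 FPKM, most of it Lyz2. The part of these cells in the results below was not tested.

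None of the members differed between TMAO and Control past the threshold. Limma, fitted on log2(FPKM + 1) over the 11062 genes that reached 1 FPKM in 3 or more libraries, called 0 of the 35 tested members at an adjusted p of 0.05. Over all genes it called 0.181%, 8 higher and 12 lower in TMAO. An unadjusted p below 0.05 was found for 3 members, 2 of them higher in TMAO (Slc16a1 and Aldoa) and 1 lower (Hif1a), where 13.1% of all genes had one. A second fit was voom on whole reads recovered from the FPKM values. It called 1 of the 35 tested members, Hif1a, and 210 of 11058 genes over all. For 6 members each TMAO library exceeded every Control library, against 12.4% of all genes, and for 1 member each was lower, against 6.23% of all genes. A log2 fold change above 0 was found for 25 of 35 members and for 60.0% of all genes, and the median was 0.04 over the members and 0.02 over all genes. No count of members stood far from the share among all genes, so none of them is a result about the members.

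The intervals give the precision on the scale of the test. The 95% interval of the log2 fold change in FPKM + 1 lay within 0.25 of 0 on both sides for 22 of 35 members and within 0.5 of 0 for 34, Eno2 being the exception. This scale narrows the intervals of low genes, so for members of a few FPKM, such as Pfkfb3 and Kdm3a, they do not bound the fold in FPKM itself. In bulk RNA, fewer cells of a type and less RNA per cell cannot be told apart.

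**Figure D1:**
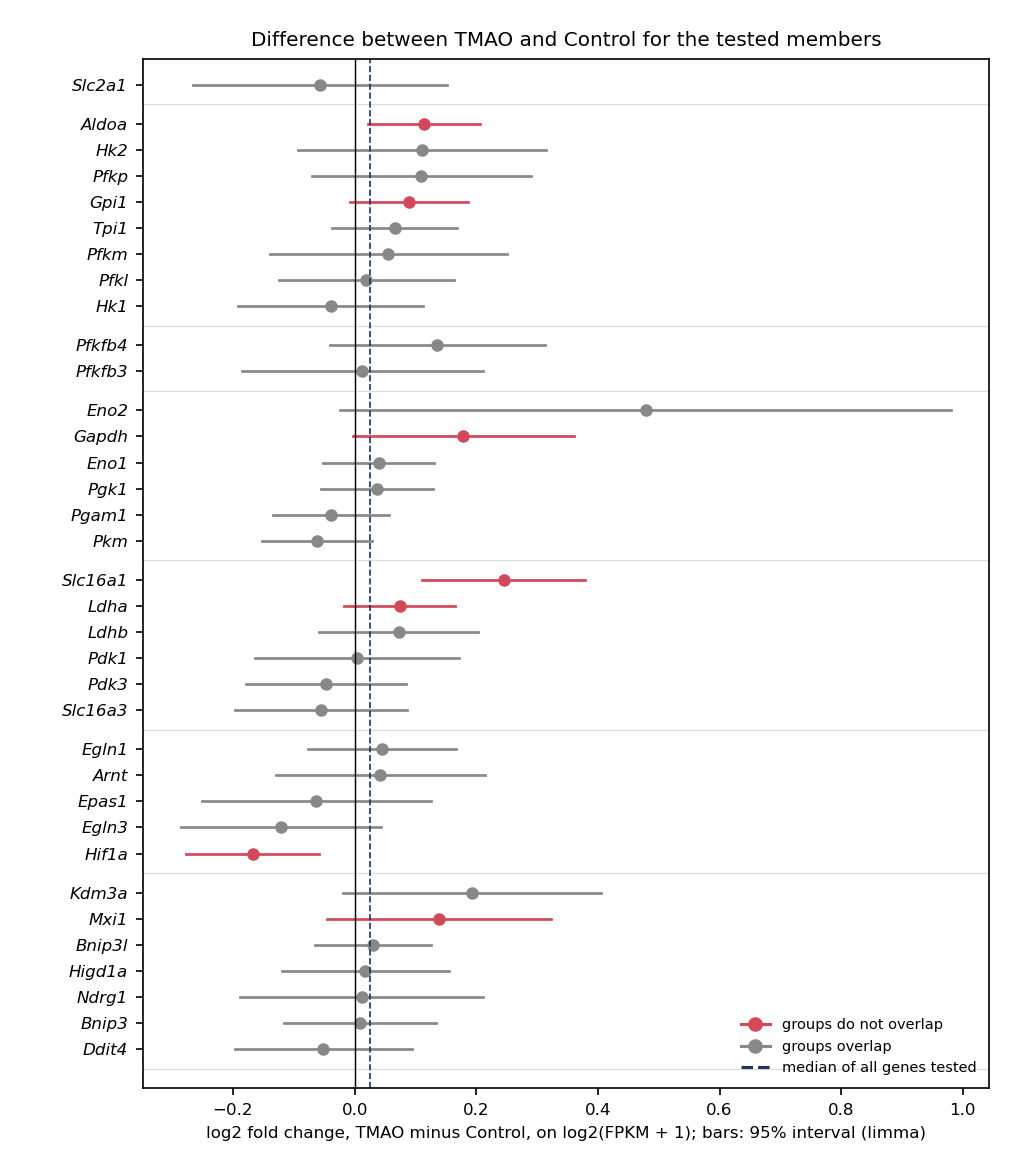
Log2 fold change of TMAO minus Control for the 35 tested members (points) with 95% limma intervals (bars), in the order of their roles; red marks the 7 members whose groups do not overlap, and the dashed line is the median of all genes tested. The intervals of Slc16a1 and Aldoa lie above 0 and that of Hif1a below it, all others cross 0, and Eno2 has the widest.

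Glucose enters through Slc2a1 (GLUT1, the main transporter of growing cells), which was the main transporter gene of the pair here as well. Its values were 14.7, 15.8 and 14.9 FPKM in Control 1 to 3 and 16.9, 14.4 and 12.6 FPKM in TMAO 1 to 3. TMAO 1 was the highest and TMAO 3 the lowest of all 6 libraries, so the groups overlapped. Slc2a3 (GLUT3, a high-affinity transporter) lay between 0.476 and 0.827 FPKM, below the filter, and was not tested. Slc2a1 was 17.8 to 30.2 times Slc2a3 in the 6 libraries.

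Of the enzymes in the upper part of glycolysis, from hexokinase to triose phosphate isomerase, Aldoa and Gpi1 had groups that did not overlap. Aldolase A (Aldoa, which splits fructose bisphosphate; chromosome 7, 126795234 to 126800751, minus strand of mm10) read 243, 251 and 253 FPKM in Control and 277, 263 and 269 FPKM in TMAO. Every TMAO library was above the highest Control library. The log2 fold change was 0.11 ± 0.041 (SE), with a 95% interval of 0.02 to 0.21 and a limma adjusted p = 0.279. Gpi1, which converts glucose phosphate to fructose phosphate, read 44.8, 43.7 and 46.2 FPKM in Control and 48.7, 47.1 and 47.6 FPKM in TMAO (0.09 on the log2 scale, with 0.424 as the limma adjusted p). Its groups were separated by less than 1 FPKM. Tpi1, which interconverts the triose phosphates, went with means of 129 ± 6.12 FPKM (SD, n = 3) and 135 ± 3.06 FPKM (0.07 on the log2 scale, with 0.595 as the limma adjusted p), with groups that overlapped.

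Hexokinase and phosphofructokinase, regulated steps of this upper part, were far lower in level. Hk1, the constitutive hexokinase, lay between 6.46 and 7.58 FPKM, and Hk2, the inducible one, between 1.80 and 2.49 FPKM. The liver-type, platelet-type and muscle-type phosphofructokinase genes Pfkl, Pfkp and Pfkm had Control means of 6.05, 4.35 and 3.58 FPKM and TMAO means of 6.14, 4.76 and 3.77 FPKM. All 5 genes overlapped between the groups. Pfkfb3 and Pfkfb4 code for enzymes that make and break down an activator of phosphofructokinase. Pfkfb3, the form best known in dividing cells, stayed between 0.987 and 1.26 FPKM. Pfkfb4, a strongly hypoxia-inducible form in many cells, read 2.69, 3.09 and 2.64 FPKM in Control and 3.41, 3.06 and 3.07 FPKM in TMAO (0.14 on the log2 scale, with 0.517 as the limma adjusted p), with Control 2 inside the range of TMAO. The brain-type aldolase gene Aldoc lay between 0.768 and 1.26 FPKM and was not tested. The other gene model named Aldoa, just upstream of the main one, held 2 to 9 reads per library and was not tested.

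**Figure D2:**
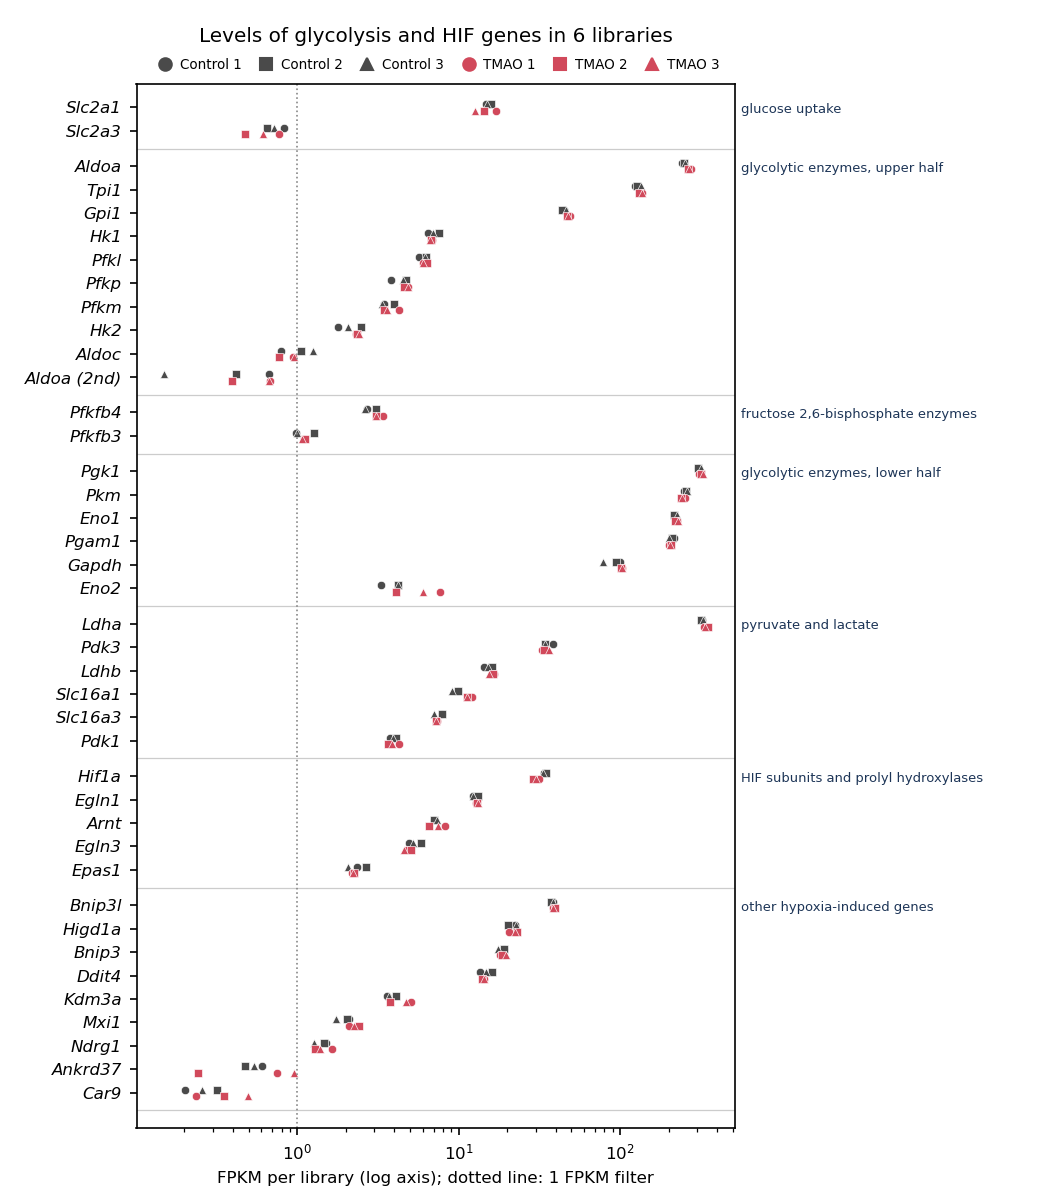
FPKM of all 40 rows in each library on a log axis, grouped by role, with Control in grey and TMAO in red. Ldha, Pgk1, Aldoa, Pkm, Eno1 and Pgam1 lie at the right with means above 200 FPKM, and Slc2a3, Ankrd37, Car9 and the other Aldoa model stay left of the dotted line at 1 FPKM in every library.

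Of the 6 enzyme genes of the lower part of glycolysis, all but Eno2 were among the 8 most abundant members, and 4 had close means in the 2 groups. Pgk1, a phosphoglycerate kinase that yields ATP, read 305, 305 and 317 FPKM in Control and 308, 319 and 324 FPKM in TMAO (0.04 on the log2 scale, with 0.763 as the limma adjusted p). Pkm, the pyruvate kinase gene, read 250.2, 256 and 259 FPKM in Control and 251, 238 and 243 FPKM in TMAO (-0.06 on the log2 scale, with 0.570 as the limma adjusted p). Eno1 (enolase 1) had means of 219 ± 5.55 and 225 ± 4.50 FPKM (0.04 on the log2 scale, with 0.742 as the limma adjusted p), and Pgam1 (phosphoglycerate mutase) 209 ± 7.49 and 204 ± 3.54 FPKM (-0.04 on the log2 scale, with 0.757 as the limma adjusted p). In each of these 4 genes the groups overlapped, and each interval lay within 0.25 of 0.

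Gapdh, often used as a reference gene, showed its spread in the Control group. It read 99.3, 94.6 and 78.4 FPKM in Control and 103, 101 and 102 FPKM in TMAO. The TMAO libraries were all higher, and Control 3 stood apart below the other 5. Its log2 fold change of 0.18 had 0.385 as the limma adjusted p, and it became 0.08, with an adjusted p of 0.602, without Control replicate 3.

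Eno2, the neuronal form of enolase, had the largest difference of any tested member and also the largest spread. It read 3.28, 4.20 and 4.20 FPKM in Control and 7.70, 4.10 and 6.05 FPKM in TMAO. TMAO 1 and TMAO 3 stood above every Control library, whereas TMAO 2 lay among them. Its log2 fold change came to 0.48 ± 0.205 (SE; limma adjusted p = 0.400), with an interval of -0.02 to 0.98. It was 0.68 (limma adjusted p = 0.0531) without TMAO replicate 2 and 0.30 (limma adjusted p = 0.529) without TMAO replicate 1.

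At the fork between lactate and the mitochondria, the lactate transporter gene Slc16a1 gave the clearest separation of the groups among the members. The gene Slc16a1 (MCT1, a proton-linked carrier of lactate and pyruvate; chromosome 3, 104638668 to 104658462, plus strand of mm10) read 9.89, 9.90 and 9.03 FPKM in Control and 12.1, 11.3 and 11.3 FPKM in TMAO. All TMAO libraries were above all Control libraries, by more than the spread inside either group. The TMAO mean was 20.4% higher, with a log2 fold change of 0.24 ± 0.061 (SE), an interval of 0.11 to 0.38, an unadjusted p = 0.00216 and a limma adjusted p = 0.143, the smallest among the members. Its value stayed between 0.21 and 0.27 in 14 alternative fits, none of which called it (adjusted p from 0.0647 to 0.428). Slc16a3 (MCT4, the low-affinity carrier typical of glycolytic cells) read 7.90, 7.94 and 7.08 FPKM in Control and 7.39, 7.26 and 7.28 FPKM in TMAO, with groups that overlapped. The ratio of Slc16a1 to Slc16a3 was therefore 1.25, 1.25 and 1.28 in Control and 1.63, 1.56 and 1.55 in TMAO.

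Ldha, the lactate dehydrogenase subunit that favours lactate production, was the most abundant member. It read 321, 316 and 326 FPKM in Control and 330.5, 350 and 335 FPKM in TMAO, so its groups did not overlap. Its log2 fold change came to 0.07 ± 0.041 (SE; limma adjusted p = 0.485). Ldhb, the subunit typical of heart, lay between 14.3 and 16.6 FPKM with overlapping groups. Pyruvate dehydrogenase kinases hold pyruvate back from the mitochondria. Of the members, Pdk3 lay between 32.9 and 38.3 FPKM and Pdk1, the classical HIF target, between 3.64 and 4.27 FPKM, and both overlapped.

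**Figure D3:**
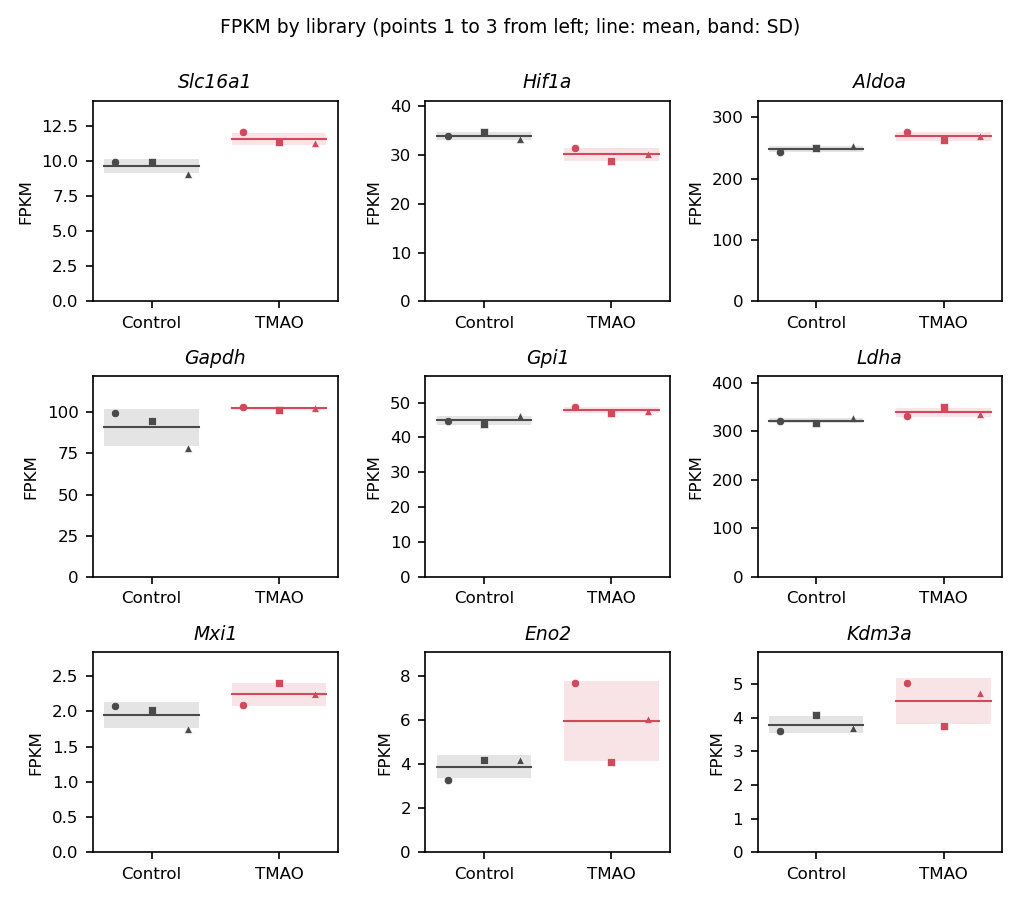
FPKM by library for the 7 members whose groups do not overlap and for Eno2 and Kdm3a, on axes that start at 0, with Control 1 to 3 in grey and TMAO 1 to 3 in red; the line is the group mean and the band the SD. Slc16a1 shows 3 red points above 3 grey ones, Hif1a 3 below, Gapdh has a low Control 3, and in Eno2 and Kdm3a the square of TMAO 2 lies at the level of Control.

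Hif1a was the member lower in every TMAO library. The gene for the HIF-1 alpha subunit (chromosome 12, 73901375 to 73947530, plus strand of mm10) read 33.8, 34.8 and 33.2 FPKM in Control and 31.4, 28.8 and 30.3 FPKM in TMAO. The mean was -11.3% relative to Control, with a log2 fold change of -0.17 ± 0.049 (SE), an interval of -0.28 to -0.06, an unadjusted p = 0.00633 and a limma adjusted p = 0.206. With voom on recovered reads the log2 fold change was -0.20 and passed, with an adjusted p = 0.0395, in a fit that called 210 of 11058 genes. Over the 14 alternatives the value ran from -0.21 to -0.14 and the adjusted p from 0.0395 to 0.486. Between 2680 and 3293 reads per library lay behind these values. A predicted gene on the other strand overlaps 5.6% of the exon bases of Hif1a, and another on the same strand overlaps 2.5%. The sources used here do not state how strand was treated in counting.

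The other members of the oxygen-sensing pathway overlapped between the groups. Epas1, the HIF-2 alpha gene, lay between 2.08 and 2.67 FPKM. The shared partner Arnt read 7.07, 7.06 and 7.36 FPKM in Control and 8.29, 6.59 and 7.41 FPKM in TMAO, so TMAO held both the highest and the lowest library. Among the prolyl hydroxylases, Egln1 (PHD2, the main oxygen sensor) lay between 12.2 and 13.2 FPKM. Egln3 (PHD3, itself a HIF target) read 4.95, 5.81 and 5.23 FPKM in Control and 4.82, 5.04 and 4.59 FPKM in TMAO, with a log2 fold change of -0.12, with 0.535 as the limma adjusted p.

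Of the 9 other hypoxia-induced members, 8 had groups that overlapped, Mxi1 being the exception. The mitophagy receptor genes Bnip3 and Bnip3l lay between 17.6 and 19.6 FPKM and between 37.5 and 39.7 FPKM, and Higd1a, a mitochondrial protein gene, between 20.2 and 23.0 FPKM. Ddit4 (REDD1, an inhibitor of mTORC1) lay between 13.5 and 16.1 FPKM and Ndrg1 between 1.26 and 1.63 FPKM. All 5 overlapped. Exons annotated on the other strand overlap 22.3% of the exon bases of Bnip3 and 22.5% of those of Higd1a, so both levels are uncertain.

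Mxi1, an antagonist of MYC, read 2.08, 2.02 and 1.74 FPKM in Control and 2.08, 2.41 and 2.24 FPKM in TMAO, and its groups were separated only in the third decimal of TMAO 1 and Control 1 (0.14 on the log2 scale, with 0.530 as the limma adjusted p). Kdm3a, a histone H3 demethylase, read 3.60, 4.08 and 3.71 FPKM in Control and 5.05, 3.74 and 4.74 FPKM in TMAO. TMAO 1 and TMAO 3 were again the high libraries and TMAO 2 was within Control (0.19 on the log2 scale, with 0.428 as the limma adjusted p). Without TMAO replicate 1 it was 0.12, and without TMAO replicate 2 it was 0.30 (limma adjusted p = 0.697 and 0.151).

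The carbonic anhydrase gene Car9, in many cells almost silent without hypoxia, and Ankrd37 were close to the detection limit. Car9 held 7, 11 and 10 reads in Control and 9, 13 and 17 reads in TMAO, or 0.202 to 0.492 FPKM. Ankrd37 held 14, 11 and 14 reads in Control and 19, 6 and 22 reads in TMAO, or 0.244 to 0.954 FPKM. Neither was tested, and a difference between the groups was not detectable at this depth.

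The balance between genes that serve the same step was examined as a share of their summed FPKM, a description with no test. Ldha made up 95.1% to 95.7% of the lactate dehydrogenase pair and Aldoa 99.5% to 99.7% of the aldolase pair in all 6 libraries. Hif1a made up 92.7% to 94.1% of the HIF alpha pair, 12.8 to 16.0 times Epas1. Pdk3 made up 88.5% to 91.1% of its pair. In 4 of 11 families the shares of the 2 groups did not overlap, a count for which no background over comparable pairs was computed. The share of Slc16a1 in its pair was 55.7% ± 0.30 (SD, n = 3) in Control and 61.3% ± 0.68 in TMAO. Hk2 took 23.2% ± 1.49 and 25.8% ± 0.70 of the hexokinase pair, Pfkfb4 72.2% ± 1.13 and 74.3% ± 1.26 of its pair, and Egln1 70.3% ± 0.90 and 73.0% ± 1.17 of the prolyl hydroxylase pair. The step between the groups was largest for Slc16a1, several times the SD of either group. For the other 3 it was between 2 and 3 percentage points, also above the SD of either group. These 4 families were named because their groups did not overlap, so steps above the SD add no support.

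**Figure D4:**
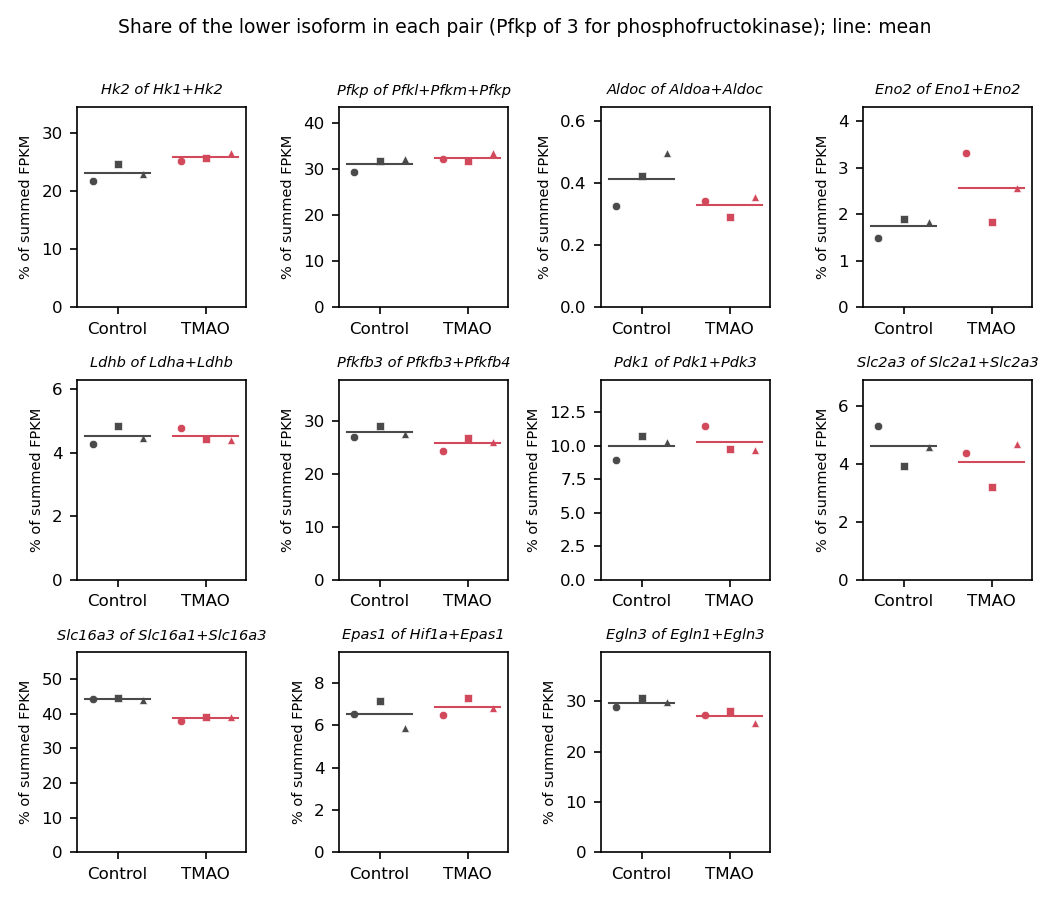
Share of the less abundant gene in the summed FPKM of each pair, by library (for phosphofructokinase, Pfkp of 3 genes), on axes that start at 0; the lines are group means. The share of Slc16a3 is lower in all 3 TMAO libraries, and the share of Eno2 is spread widely within TMAO.

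The order of levels among the abundant members depended on the length used. By FPKM, whose exon length is the union of all annotated exons of a gene, 6 members had means above 200: Ldha, Pgk1, Aldoa, Pkm, Eno1 and Pgam1. The ranges of neighbours overlapped for Ldha (316 to 350 FPKM) and Pgk1 (305 to 324 FPKM), for Aldoa and Pkm, and for Eno1 and Pgam1. Within each library Ldha was nonetheless above Pgk1, whereas the order inside the other pairs changed between libraries. Exons outside the principal transcript make up 65.6% of that union for Gapdh, 62.3% for Eno1 and 51.4% for Pkm, but 18.7% for Pgk1 and 10.4% for Pgam1. Per kilobase of the principal transcript, the same reads gave 618 for Ldha, 589 for Eno1, 513 for Pkm, 499.5 for Aldoa, 385 for Pgk1, 281 for Gapdh, 231 for Pgam1 and 226 for Tpi1. Ldha led by both lengths, whereas Pgk1 went from place 2 to place 5 and Pgam1 from place 6 to place 7. Pfkp overtook Pfkl among the phosphofructokinases, with 49.2% against 36.5% of the sum. The length also enters the fold changes of low genes, through the pseudocount of 1 FPKM, and the family shares.

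Some members have near-identical copies in the genome, and the sources used here do not state how shared reads were assigned, so these levels are uncertain. The retrogene Eno1b held 3.73% as many reads as Eno1, Pgam1-ps2 3.13% as many as Pgam1, Pgk1-rs7 1.37% as many as Pgk1, and Bnip3l-ps 8.22% as many as Bnip3l. Gapdh-ps16, the highest of the 3 Gapdh copies looked at, held 0.232% as many reads as Gapdh. Exons of other genes on the same strand overlap 15.3% of the exon bases of Pkm and 10.2% of those of Pfkm, and exons on the other strand 11.5% of those of Gpi1, 26.4% of those of Ankrd37 and 9.3% of those of Car9.

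Promoters were compared because HIF binds a short core, A or G followed by CGTG, within hypoxia response elements. The RefSeq promoter table (GRCm38.p6, 250 bases before to 50 after a start) held 52 promoters of 35 members, and Slc2a3, Epas1, Bnip3l and Ndrg1 had no entry. The core ACGTG, searched on both strands, was present in 24 of these 35 genes (68.6%) and in 28 of 52 promoters (53.8%). Over all entries it was present in 21.8% of genes and 19.6% of promoters. Among the genes tested here it was present in 30.6% of genes and 26.5% of promoters. Members were chosen as glycolytic and hypoxia-induced genes, so a higher share of a HIF core among them is no independent result. The core GCGTG was in 53.8% of member promoters and 51.7% of those of tested genes. The E-box CACGTG, which holds ACGTG on both strands and so counts as 2 matches, was in 11.5% and 10.4%. The median GC content was 62.7% for the member promoters and 61.0% for those of tested genes.

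The stretches of promoter below hold the ACGTG matches found outside exons for 4 members whose groups did not overlap and for 2 HIF targets whose groups did, so that both kinds can be read side by side. They are written 5′ to 3′ on the strand of the gene, with matches on either strand (ACGTG or CACGT) in capitals, and hold no annotated exon base.
Slc16a1 (chr3:104638452-104638481, plus strand): gcggcgccgggtCACGTGgcgggaaggggg
Hif1a (chr12:73907720-73907813, plus strand): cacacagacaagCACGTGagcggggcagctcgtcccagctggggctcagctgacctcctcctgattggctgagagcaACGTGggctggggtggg
Aldoa (chr7:126799364-126799392, minus strand): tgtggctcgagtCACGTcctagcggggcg
Ldha (chr7:46845647-46845786, plus strand): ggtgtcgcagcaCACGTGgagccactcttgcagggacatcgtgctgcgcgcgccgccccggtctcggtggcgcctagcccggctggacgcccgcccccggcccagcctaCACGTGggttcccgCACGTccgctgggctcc
Bnip3 (chr7:138909597-138909626, minus strand): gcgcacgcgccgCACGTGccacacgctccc
Pgk1 (chrX:106186938-106186985, plus strand): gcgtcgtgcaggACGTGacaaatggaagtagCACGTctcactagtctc

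The Ldha stretch held 5 matches, the most of any member promoter, within 157 bases of the start. The Slc16a1 stretch holds 2 of the 3 matches in its promoter. Those of Hif1a, Aldoa and Ldha also lie in an intron of a longer transcript of the gene. The E-box form was present in the stretches of Slc16a1, Hif1a, Ldha and Bnip3. Bnip3, with 2 matches that form 1 E-box, stood at 18.6 ± 0.880 and 18.7 ± 0.812 FPKM. Pgk1, with 2 separate matches, overlapped between the groups. Eno2, Gpi1, Kdm3a, Arnt, Eno1, Ldhb, Pdk1, Pfkfb4, Pfkl, Pfkp and Tpi1 had no ACGTG match in this window. Gapdh and Mxi1, whose groups did not overlap either, had promoters with 1 match and are not printed. These matches are of ACGTG only, and the core GCGTG is not marked in the stretches. A match is a description of the letters and not a bound site.

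Genes of the same pathways that are not members were followed in 2 lists written with earlier results of these data known. Of the other HIF pathway and hypoxia-induced genes, 37 of 39 were tested and 0 were called by limma, with an unadjusted p below 0.05 for 7 higher and 1 lower gene, where 13.1% of all genes had one. Their groups did not overlap for 10 genes higher and 2 lower in TMAO, against 12.4% and 6.23% of all genes, and the median log2 fold change was 0.04 against 0.02. The 10 genes are thus a larger share of this list than of all genes. Because the list was written with earlier results of these data known, that share is not a result about the pathway, and it was not tested. Hif3a, a HIF family gene that gives rise to inhibitory forms, read 2.69, 2.99 and 2.73 FPKM in Control and 4.38, 3.60 and 3.90 FPKM in TMAO (0.38 on the log2 scale, with 0.104 as the limma adjusted p). Vegfa, the angiogenic growth factor gene, read 6.51, 7.30 and 6.44 FPKM in Control and 11.3, 8.22 and 10.2 FPKM in TMAO (0.48 on the log2 scale, with 0.104 as the limma adjusted p), and passed without TMAO replicate 2 (0.60 on the log2 scale, with 0.0209 as the limma adjusted p). In the other direction Plod1, a collagen lysyl hydroxylase, read 13.3, 14.5 and 14.3 FPKM in Control and 11.9, 11.1 and 11.7 FPKM in TMAO (-0.26 on the log2 scale, with 0.114 as the limma adjusted p). Plin2, a lipid droplet coat gene, had a log2 fold change of 0.15, with 0.207 as the limma adjusted p. Voom on recovered reads called Hif3a, Vegfa and Plod1, with adjusted p-values of 0.00654, 0.00305 and 0.00515, and Wsb1, a ubiquitin ligase component, with 0.0372. Over all genes that fit called 210 of 11058.

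Of the other genes of glycolysis, pyruvate handling and the pentose phosphate pathway, 26 of 40 were tested and 0 were called by limma. An unadjusted p below 0.05 was found for 4 higher and 0 lower genes, and the groups did not overlap for 5 higher and 1 lower, against the same 13.1%, 12.4% and 6.23% of all genes. The median log2 fold change was 0.06. The 4 genes were the mitochondrial pyruvate carrier subunits Mpc1 and Mpc2, the pentose phosphate enzyme Taldo1 and the pyruvate dehydrogenase kinase Pdk4. Mpc1 read 1.73, 1.91 and 1.91 FPKM in Control and 2.94, 2.41 and 2.44 FPKM in TMAO (0.33 on the log2 scale, with 0.155 as the limma adjusted p). Its level is uncertain, since exons on the other strand overlap 23.1% of its exon bases. Mpc2 went with means of 6.94 ± 0.533 and 7.97 ± 0.339 FPKM (0.18 on the log2 scale, with 0.307 as the limma adjusted p), Taldo1 with 64.2 ± 1.81 and 71.6 ± 2.76 FPKM (0.15 on the log2 scale, with 0.207 as the limma adjusted p) and Pdk4 with 40.6 ± 1.96 and 46.1 ± 2.33 FPKM (0.18 on the log2 scale, with 0.210 as the limma adjusted p). Pdk4 was thus the most abundant kinase gene of that family by FPKM, above Pdk3.

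Across the libraries, 17 genes of glycolytic enzymes and lactate dehydrogenase together took 0.654%, 0.659% and 0.666% of the reads in the 3 Control libraries, against 0.683%, 0.674% and 0.683% in the TMAO libraries, sums whose groups were close but did not overlap. Measures of the RNA moved with the groups too. The nuclear RNA Malat1 read 75.0, 113 and 84.4 FPKM in Control and 218, 153 and 183 FPKM in TMAO. Reads in 410 weak genes that lie inside expressed genes on the same strand stood at 47.6, 62.4 and 52.5 RPM (reads scaled to library size) in Control libraries, against 112, 84.9 and 97.9 RPM in TMAO. Mitochondrial genome transcripts took 7.2% to 7.8% of reads in Control and 6.4% to 6.6% in TMAO. Within TMAO, Malat1 and the nested reads were highest in TMAO 1 and lowest in TMAO 2, and Eno2, Kdm3a, Vegfa and Hif3a had the same order, as did 15 of the 35 tested members and 31.9% of all genes tested. These genes were picked after their values were seen. Exons outside the principal transcript make up 40.6% of the exon union of Eno2, 41.0% of that of Kdm3a, 84.7% of that of Vegfa and 67.1% of that of Hif3a. The part of these measures in the results was not tested.

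**Figure D5:**
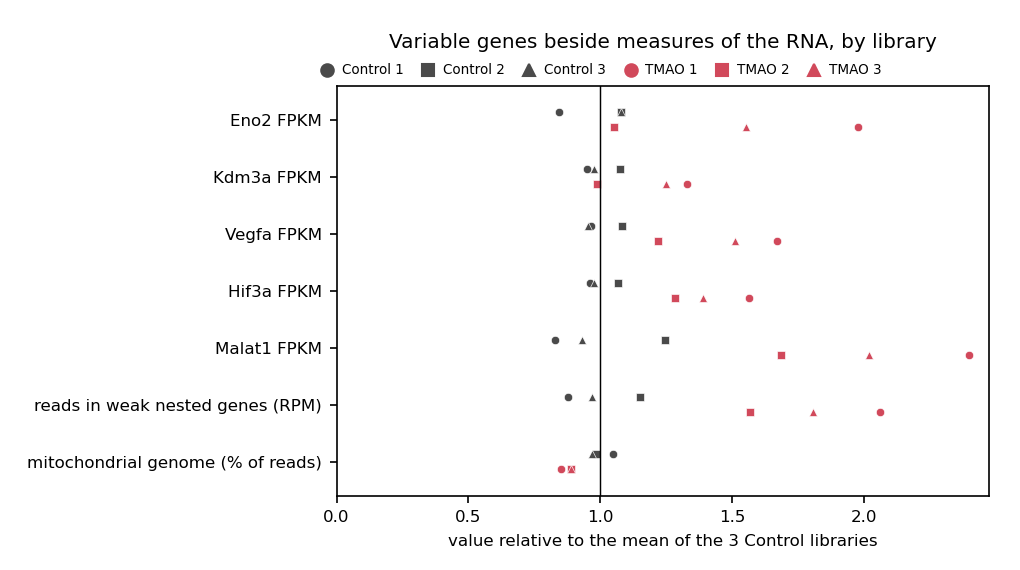
Eno2, Kdm3a, Vegfa and Hif3a beside Malat1, reads in weak nested genes and the mitochondrial share, each divided by its Control mean, by library. In the first 6 rows TMAO 1 (circle) is the highest and TMAO 2 (square) the lowest of the TMAO libraries, and TMAO 2 lies at the Control level only for Eno2 and Kdm3a.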

How the data were processed

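RNA of 6 libraries (3 Control, 3 TMAO, grouped by title) was measured by sequencing. Per the labels' protocols, Trizol was used for extraction and a stranded mRNA kit for the libraries. Per the submitters' processing notes, Trimmomatic, HISAT2, Cufflinks, HTSeq and mm10 were used; their versions, the annotation and the strand setting are not stated in the sources used here. The authors deposited 1 FPKM value per gene and library; 1 header spells it PKM.

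With exon lengths from GENCODE M21 (mm10) and 1 total per library, 25499 of 25885 annotated genes (98.5%) came out as whole reads within 0.01; 54 identifiers were not in that annotation. The test was limma 3.58.1 in R 4.3.3 (trended, robust variance) on log2(FPKM + 1), which understates changes of low genes, for genes with at least 1 FPKM in 3 libraries, two-sided, with Benjamini-Hochberg adjustment over all 11062 genes and a threshold of 0.05. Within each group, no library repeated another in a chi-square comparison of reads. The members, gene lists and tests were chosen with earlier results of these data known. Fold changes are given for the 12 members of smallest p, the 8 of highest level and 4 genes of each pathway list with the smallest p; other members are given by FPKM. The principal transcript is the longest with the best APPRIS tag. The script was tested on simulated data. Python 3.11.15, pandas 2.3.3, numpy 2.4.6 and matplotlib 3.10.9 made tables and figures. The 14 alternatives were another pseudocount, 2 filters, 2 scalings, a variance that is not robust, voom, the replicate block and each library left out.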

Additional observations from a re-analysis of the deposited data

How the results depend on the processing

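The replicate numbers did not pair the libraries: deviations of same-numbered libraries correlated at -0.086, -0.104 and 0.056, and with the replicate block 22 genes and 0 members passed. Over all genes 20 passed with limma, 0 with no filter, 25 with quantile normalization (7 higher, 18 lower, against 8 and 12), 57 with a filter of 5 FPKM, 210 with voom on recovered reads (79 higher, 131 lower), and 11 to 58 when a library was left out (11 without Control replicate 3, 8 of them higher, 13 without TMAO replicate 1, 8 of them higher, and 58 without TMAO replicate 2, 44 of them higher). Members past the threshold numbered 0 in 13 of 14 alternatives and 1, Hif1a, with voom. Of the other pathway genes, 1 passed with a filter of 5 FPKM, 4 with voom and 0 to 2 with a library left out (Vegfa and Wsb1 without TMAO replicate 2). Members whose groups did not overlap numbered 7, and 10 to 14 with 1 library fewer, where separation is easier by construction. The median over members was 0.037, became -0.003 with median-ratio size factors and 0.00669 with voom, where that of all genes was 0.025, -0.009 and -0.0005. With median-ratio size factors Eno1 changed sign to -0.00035 and Pgk1 to -0.0030. Of 43 genes followed, 27 kept their sign throughout, and the 16 that did not had log2 fold changes of at most 0.063 in size. The pseudocount of 0.1 moved Mpc1 from 0.33 to 0.46, Eno2 from 0.48 to 0.56 and Mxi1 from 0.14 to 0.20, and no call. Depth limits Car9 and Ankrd37, at 6 to 22 reads; Slc2a3 (55 to 93 reads) and Aldoc (39 to 69 reads) were left out by the filter on FPKM.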
